A study of Rattus norvegicus with 16 samples.

Results

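Slits and netrins are secreted guidance proteins, and their mRNAs were measured here together with those of their receptors in the distal sciatic nerve of rats after a resection. The members were the genes Slit1, Slit2, Slit3, Ntn1, Ntn4, Robo1, Robo2, Dcc, Unc5b and Unc5c and were found by symbol. All 10 were found among the 18166 genes tested, each with 1 probe set except Unc5b, which had 2 and was represented by the brighter of them. The nerves came from 6-week-old male Sprague Dawley rats in which a piece of the sciatic nerve of 1 leg had been removed and the distal end tucked away so that axons would not regrow into it. The groups were injured nerve 7 days post injury (7 DPI), contralateral uninjured nerve 7 DPI, injured nerve 3 DPI and contralateral uninjured nerve 3 DPI, with 4 arrays in each and 16 in all. The contralateral nerves came from injured animals, so no nerve of an unoperated animal is among the groups. The labels call the arrays of a group biological replicates without linking a nerve to an animal, so p-values measure the spread between these nerves.

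Slit proteins bind Robo receptors and are best known as repellents that keep commissural axons from recrossing the midline of the nervous system. Netrin-1 attracts axons through Dcc and repels them where an Unc5 receptor takes part, while netrin-4 is built on a laminin beta-like domain and binds laminin networks in basement membranes. In the mouse sciatic nerve, Slit3 from macrophages and Robo1 on Schwann cells have been described as steering migrating Schwann cells at the site of a transection.

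Of the 10 mRNAs, 3 fell in injured nerve on both days, namely those of the ligands Slit2, Slit3 and Ntn4. Ntn4 fell by 1.07 ± 0.14 at 7 DPI and by 0.81 ± 0.14 at 3 DPI, and Slit2 fell by 0.57 ± 0.15 at 7 DPI and by 1.01 ± 0.15 at 3 DPI. Ntn1 fell at 7 DPI, the receptor Unc5c fell at 3 DPI, and no member rose in either comparison. Changes are log2 differences, injured minus contralateral, with the standard error of a limma fit over the 16 arrays, in which 4 arrays stand behind each group mean. A member passed the test at an adjusted p under 0.05 (Benjamini-Hochberg over the 18166 genes) and was called where the change was also at least 2-fold.

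By the adjusted p alone, 4 of 10 members were lower at 7 DPI (Slit2, Slit3, Ntn1, Ntn4), against 13% of all genes, and 4 of 10 were lower at 3 DPI (Slit2, Slit3, Ntn4, Unc5c), against 14.7% of all genes. None of the 10 was higher by that rule on either day, against 19.1% of all genes at 7 DPI and 18.8% at 3 DPI, and none was higher at an unadjusted p under 0.05, against 23.1% at 7 DPI and 22.3% at 3 DPI. In all, 3 of 10 members and 9.24% of all genes were lower on both days. These comparisons use different arrays but share an estimate of each gene's spread, so they are not independent. With the 2-fold minimum, 1 member was called at 7 DPI (Ntn4), against 4.66% of all genes, and 1 at 3 DPI (Slit2), against 5.81% of all genes. All injured arrays lay below all contralateral arrays for 5 members at 7 DPI (Slit2, Ntn1, Ntn4, Dcc, Unc5c), against 12.8% of all genes, and for 5 at 3 DPI (Slit2, Slit3, Ntn4, Robo1, Unc5c), against 14.6%. No member had all injured arrays above, against 18.9% of all genes at 7 DPI and 19.3% at 3 DPI. The median change of the members was -0.23 at 7 DPI and -0.22 at 3 DPI, and 8 of 10 lay below 0 on each day. The median over all genes was -0.00 at 7 DPI and -0.01 at 3 DPI.

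**Figure D1:**
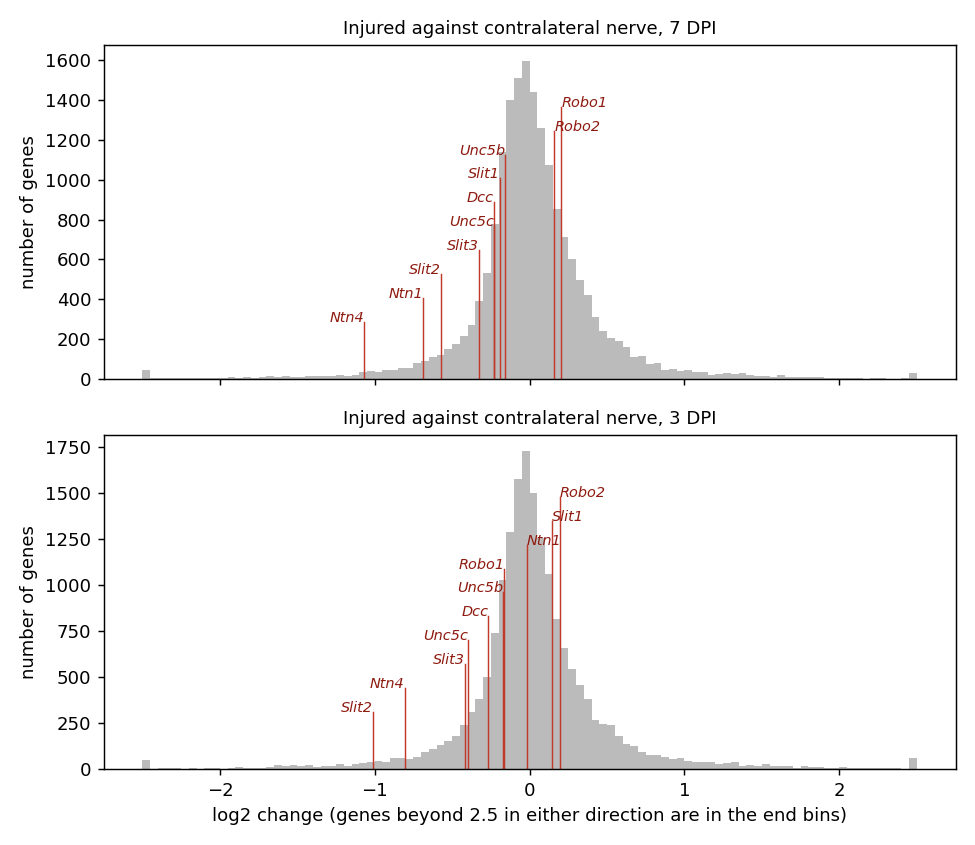
Number of genes (y axis) by log2 change, injured minus contralateral (x axis), for the 18166 genes tested at 7 DPI (top) and 3 DPI (bottom), with a red line at each of the 10 members. Line height only separates the names. Ntn4 (-1.07 at 7 DPI) and Slit2 (-1.01 at 3 DPI) lie farthest left among the members, and no member lies above 0.20 at 7 DPI or 0.19 at 3 DPI.

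Values below are log2 values as deposited, which were quantile normalised across the arrays and so do not measure a change shared by most genes. They are compared between groups and never between genes. Whole nerve was analysed, so fewer cells of a type and less RNA per cell cannot be told apart. Arrays were correlated at 0.981 to 0.989 within groups and at 0.954 to 0.988 between groups, and the medians of the 16 arrays were 6.27 to 6.40. As a check of the labels, the 14 measured myelin genes had mean values of 8.004 to 8.29 on injured and 11.1 to 11.4 on contralateral arrays at 7 DPI, and of 8.92 to 9.20 on injured and 11.4 to 11.7 on contralateral arrays at 3 DPI. Of these, 13 fell on each day. Injured 7 DPI replicate 1 stood apart in another tissue's genes, since the 8 measured skeletal muscle markers averaged 9.24 on it and 6.22 to 7.41 on the other 15 arrays. Several member results that lean on that array are also given without it.

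**Figure D2:**
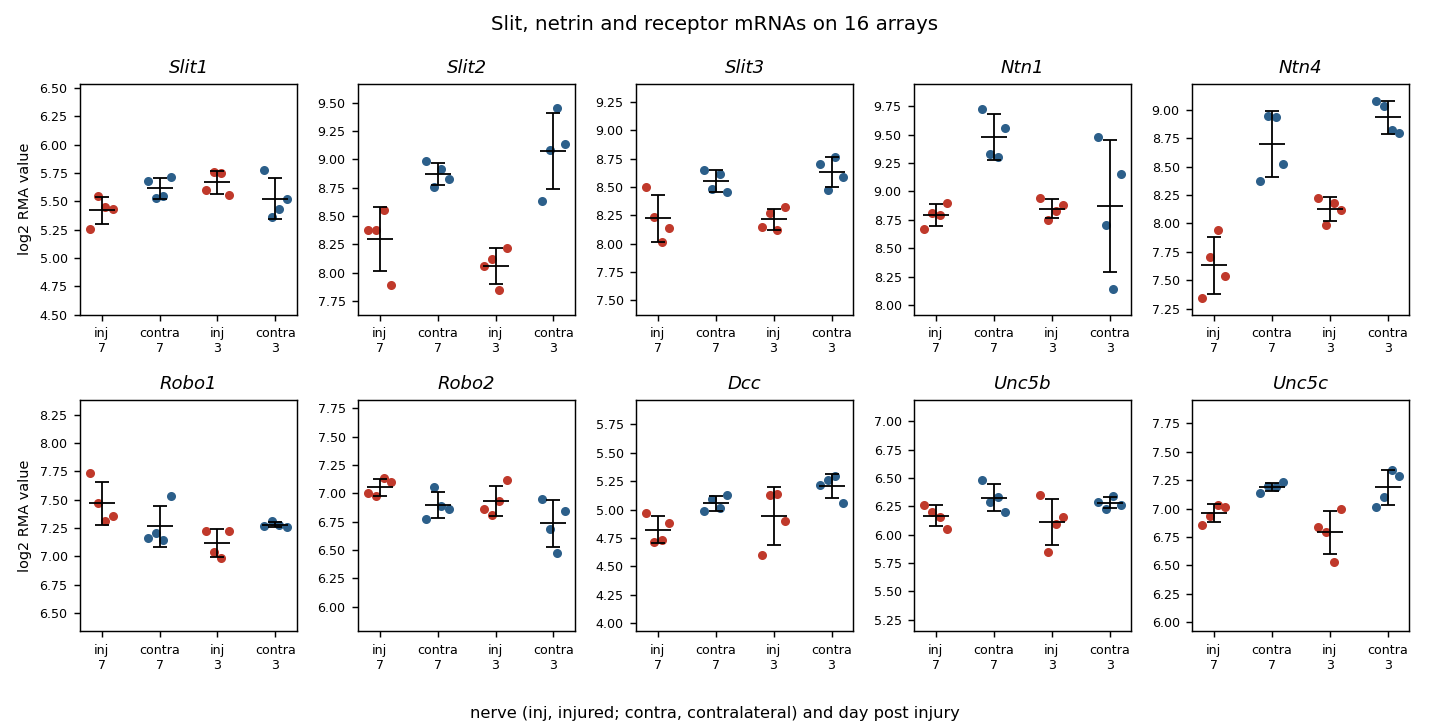
Log2 RMA values (y axis, same span in each panel) of the 10 members on the 16 arrays, by nerve and day post injury (x axis), with injured arrays in red and contralateral arrays in blue. Black bars are group means with SDs (n = 4). The red points of Ntn4 lie below the blue ones on both days, and the contralateral 3 DPI arrays of Ntn1 spread from 8.14 to 9.48.

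Promoter sequence was read for the members that fell on both days and had an entry in the RefSeq table (build GRCr8), to show what lies just before the starts of these genes. Entries were matched for 6 of the 10 members (Ntn4, Slit3, Robo1, Robo2, Dcc, Unc5b), with 2 starts for Robo1, and not for Slit1, Slit2, Ntn1 and Unc5c. Each sequence is the 250 bases before the annotated start, 5′ to 3′ on the plus strand, at chr7:30073387-30073636 for Ntn4 and chr10:20075679-20075928 for Slit3. Capitals mark matches to a motif.
Ntn4: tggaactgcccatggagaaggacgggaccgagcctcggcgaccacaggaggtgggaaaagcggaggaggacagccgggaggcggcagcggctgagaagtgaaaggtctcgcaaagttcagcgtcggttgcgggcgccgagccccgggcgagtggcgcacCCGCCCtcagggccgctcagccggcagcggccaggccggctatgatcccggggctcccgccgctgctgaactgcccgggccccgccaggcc
Slit3: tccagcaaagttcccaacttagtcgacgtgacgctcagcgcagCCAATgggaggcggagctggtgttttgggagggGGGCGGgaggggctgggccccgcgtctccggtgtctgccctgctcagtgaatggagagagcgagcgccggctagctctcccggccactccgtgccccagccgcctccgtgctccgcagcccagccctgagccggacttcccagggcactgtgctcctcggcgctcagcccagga
Motifs were searched on both strands in all 33469 promoters of that length. The TATA box, searched as TATAAA, occurred in 12.9% of them. The box known by its letters CCAAT occurred in 34.0%. The GC box, searched as GGGCGG, occurred in 30.5% of the promoters, and the AP-1 site, searched as TGANTCA, in 6.34%. The Ntn4 window held 1 GC box, on the minus strand, and the Slit3 window held 1 match to CCAAT and 1 GC box, on the plus strand and without overlap. Both windows are rich in G and C, at 72.4% for Ntn4 and 69.2% for Slit3, against a median of 51.2% over all promoters. A match shows only that the letters are present.

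Netrin-4 mRNA was the member with the largest fall at 7 DPI. Ntn4 (probe set 17827629) had values of 7.34, 7.70, 7.94 and 7.54 on the injured arrays and 8.38, 8.95, 8.94 and 8.52 on the contralateral arrays at 7 DPI. Each injured array was below each contralateral array, and the difference was 2.10-fold (adjusted p = 1.3e-05, limma). At 3 DPI the values were 8.23, 7.98, 8.18 and 8.12 on the injured arrays and 9.08, 9.03, 8.82 and 8.80 on the contralateral arrays, again without overlap (1.75-fold lower, adjusted p = 0.00019, limma). From low to high, the group means were 7.63 ± 0.25 in injured 7 DPI, 8.13 ± 0.11 in injured 3 DPI, 8.70 ± 0.29 in contralateral 7 DPI and 8.93 ± 0.14 in contralateral 3 DPI nerve (SD, n = 4 each). The neighbouring injured groups differed by -0.50 ± 0.14, 7 DPI minus 3 DPI, which missed the threshold (adjusted p = 0.055, limma) over all arrays. It passed without injured 7 DPI replicate 3 (-0.60, adjusted p = 0.028) and did not without the muscle-rich injured 7 DPI replicate 1 (-0.40, adjusted p = 0.16). The contralateral groups differed by -0.24 ± 0.14 (adjusted p = 0.56, limma). The call at 2-fold was lost without injured 7 DPI replicate 1 (-0.97), contralateral 7 DPI replicate 2 (-0.98) or contralateral 7 DPI replicate 3 (-0.99), while the adjusted p stayed between 8.0e-06 and 7.9e-05 with any single 7 DPI array left out.

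Slit2 encodes the Slit ligand that has been studied most as an axon repellent. At 7 DPI its values (probe set 17694823) were 8.38, 8.37, 8.55 and 7.90 on the injured arrays and 8.98, 8.76, 8.91 and 8.83 on the contralateral arrays. The groups did not overlap, with replicate 4 the lowest injured array (1.49-fold lower, adjusted p = 0.0083, limma). At 3 DPI they were 8.06, 8.12, 7.85 and 8.22 on the injured arrays and 8.63, 9.08, 9.45 and 9.14 on the contralateral arrays. Here too each injured array was below each contralateral array (2.02-fold lower, adjusted p = 5.3e-05, limma). Group means were 8.06 ± 0.16 in injured 3 DPI, 8.30 ± 0.28 in injured 7 DPI, 8.87 ± 0.10 in contralateral 7 DPI and 9.07 ± 0.34 in contralateral 3 DPI nerve, and neither the injured pair nor the contralateral pair differed past the threshold. The fall was 0.57 at 7 DPI and 1.01 at 3 DPI, a difference of 0.44 ± 0.22 that did not pass (adjusted p = 0.39, limma). The 3 DPI change lay close to the 2-fold limit, and the call was lost without contralateral 3 DPI replicate 3 (-0.89), contralateral 3 DPI replicate 4 (-0.99) or injured 3 DPI replicate 3 (-0.94).

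Slit3, another secreted Slit ligand, fell by less. At 7 DPI Slit3 (probe set 17644977) had values of 8.50, 8.24, 8.02 and 8.14 on the injured arrays and 8.65, 8.48, 8.61 and 8.46 on the contralateral arrays. The groups overlapped by 1 array, injured replicate 1, and the change was -0.33 ± 0.10 (adjusted p = 0.016, limma). The change no longer passed without injured 7 DPI replicate 3 (-0.26, adjusted p = 0.060), and without injured 7 DPI replicate 1 it was -0.42. At 3 DPI the values were 8.14, 8.27, 8.12 and 8.32 on the injured arrays and 8.70, 8.47, 8.76 and 8.59 on the contralateral arrays, without overlap (-0.42 ± 0.10, adjusted p = 0.0028, limma). The injured means were alike on the 2 days, 8.22 ± 0.21 at 7 DPI and 8.21 ± 0.10 at 3 DPI, with a 95% interval of -0.20 to 0.22 for their difference.

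Ntn1, which encodes the netrin known from spinal commissural axons, was lower in injured nerve at 7 DPI. Its values there (probe set 17657398) were 8.67, 8.81, 8.79 and 8.90 on the injured arrays and 9.72, 9.33, 9.30 and 9.56 on the contralateral arrays. The groups did not overlap (-0.69 ± 0.20, 1.61-fold lower, adjusted p = 0.013, limma). At 3 DPI the injured arrays held a narrow band of 8.95, 8.75, 8.83 and 8.88 within the contralateral values of 9.48, 8.71, 8.14 and 9.15 (-0.02 ± 0.20, adjusted p = 0.96, limma). The injured means were nearly equal, 8.79 ± 0.09 at 7 DPI and 8.85 ± 0.08 at 3 DPI, and the contralateral mean was 9.48 ± 0.20 at 7 DPI and 8.87 ± 0.58 at 3 DPI. That SD of 0.58 was the largest of the 40 member groups, whose median SD was 0.12. The contralateral nerves differed between days by 0.61 ± 0.20, which did not pass over all arrays (adjusted p = 0.25, limma). That standard error is shared with the tighter injured groups. With only the groups compared in the fit it was 0.24 (adjusted p = 0.43, limma). The difference passed without contralateral 3 DPI replicate 1 (0.81, adjusted p = 0.036, limma), while without contralateral 3 DPI replicate 3 it was 0.37 (adjusted p = 0.54, limma). With the contralateral arrays of both days pooled, the 7 DPI change of Ntn1 was -0.38 and no longer passed (adjusted p = 0.17). The mean of the 9 measured mesenchymal markers was 11.02, 10.69, 10.48 and 10.945 on contralateral 3 DPI replicates 1 to 4, in the same order from high to low as Ntn1, and its part in the result was not tested. Replicates 1 and 3 were extremes of this group for other genes too, so the order is not particular to Ntn1 and these markers. Robo2 was also highest on replicate 1 (6.95) and lowest on replicate 3 (6.47). Slit2 had the reverse, lowest on replicate 1 (8.63) and highest on replicate 3 (9.45).

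Slit1, a Slit mainly known from the central nervous system, had a dim signal with a mean over the 16 arrays of 5.56, which was not set against background. At 7 DPI the values of Slit1 (probe set 17642162) were 5.26, 5.54, 5.45 and 5.43 on the injured arrays and 5.68, 5.53, 5.54 and 5.71 on the contralateral arrays (-0.19 ± 0.09, adjusted p = 0.13, limma). At 3 DPI they were 5.5997, 5.76, 5.75 and 5.56 on the injured arrays and 5.78, 5.36, 5.43 and 5.52 on the contralateral arrays (0.14 ± 0.09, adjusted p = 0.27, limma). The groups overlapped on both days, and the injury effect passed on neither, though at 3 DPI it did without contralateral replicate 1 (0.23, adjusted p = 0.0499), and without contralateral replicate 2 it was 0.09 (adjusted p = 0.56).

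**Figure D3:**
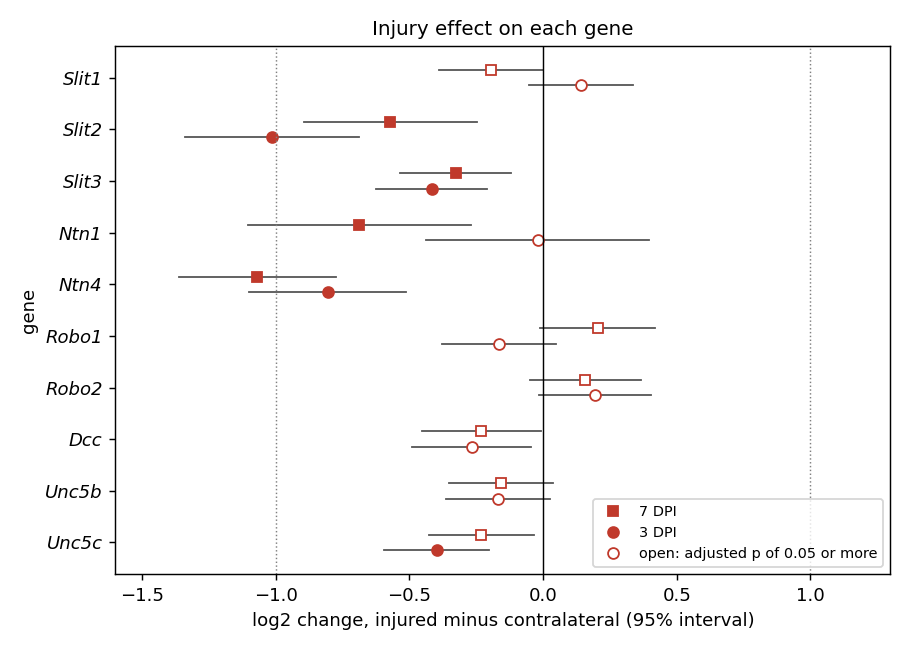
Log2 change, injured minus contralateral (x axis, points with 95% intervals), of each member (y axis) at 7 DPI (squares) and 3 DPI (circles). Filled symbols passed an adjusted p under 0.05 and dotted lines mark 2-fold. The filled symbols are Slit2, Slit3, Ntn1 and Ntn4 at 7 DPI and Slit2, Slit3, Ntn4 and Unc5c at 3 DPI, all left of 0.

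Among the receptors, Unc5c passed the test at 3 DPI. This receptor turns the response to netrin-1 into repulsion. At 7 DPI Unc5c (probe set 17743131) had values of 6.85, 6.94, 7.03 and 7.02 on the injured arrays and 7.14, 7.20, 7.19 and 7.23 on the contralateral arrays, without overlap, and the change missed the threshold (-0.23 ± 0.09, adjusted p = 0.071, limma). At 3 DPI the values were 6.84, 6.80, 6.53 and 6.99 on the injured arrays and 7.02, 7.10, 7.34 and 7.29 on the contralateral arrays, again without overlap, and Unc5c fell (-0.40 ± 0.09, 1.32-fold lower, adjusted p = 0.0028, limma). The contralateral means were 7.19 on both days. The test of the difference between the days gave 0.17 ± 0.13 (adjusted p = 0.65, limma).

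Dcc encodes the receptor through which netrin-1 attracts axons. Its signal was dim, with a mean over the arrays of 5.01, and was not set against background. At 7 DPI Dcc (probe set 17727018) had values of 4.97, 4.71, 4.74 and 4.88 on the injured arrays and 4.98, 5.10, 5.01 and 5.13 on the contralateral arrays, all injured arrays narrowly below all contralateral ones (-0.23 ± 0.11, adjusted p = 0.11, limma). At 3 DPI the values were 4.60, 5.13, 5.14 and 4.90 on the injured arrays and 5.21, 5.26, 5.29 and 5.06 on the contralateral arrays, with overlap (-0.27 ± 0.11, adjusted p = 0.063, limma). The change passed on neither day, and at 3 DPI it passed without contralateral replicate 4 (-0.32, adjusted p = 0.045), injured replicate 2 (-0.33, adjusted p = 0.031) or injured replicate 3 (-0.33, adjusted p = 0.028). Without injured 3 DPI replicate 1, its lowest array, the change was -0.15 (adjusted p = 0.23).

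Robo1 and Robo2, the main Slit receptors, showed no change past the test in any of the 5 comparisons. Robo1 (probe set 17664276) had values of 7.73, 7.48, 7.31 and 7.35 on the injured arrays and 7.16, 7.21, 7.15 and 7.53 on the contralateral arrays at 7 DPI (0.20 ± 0.10, adjusted p = 0.14, limma). At 3 DPI they were 7.22, 7.04, 6.98 and 7.22 on the injured arrays and 7.27, 7.32, 7.27 and 7.26 on the contralateral arrays (-0.16 ± 0.10, adjusted p = 0.25, limma). The 3 DPI groups did not overlap, though they nearly touched. The 95% interval of the Robo1 change was -0.01 to 0.42 at 7 DPI and -0.38 to 0.05 at 3 DPI. Without contralateral 7 DPI replicate 4, its highest array there, the 7 DPI change was 0.29 and passed (adjusted p = 0.028), and without the muscle-rich injured 7 DPI replicate 1 it was 0.12.

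Robo2 (probe set 17667439) had values of 7.01, 6.97, 7.13 and 7.10 on the injured arrays and 6.78, 7.05, 6.88 and 6.86 on the contralateral arrays at 7 DPI (0.16 ± 0.10, adjusted p = 0.25, limma). At 3 DPI they were 6.86, 6.81, 6.93 and 7.11 on the injured arrays and 6.95, 6.68, 6.47 and 6.84 on the contralateral arrays (0.19 ± 0.10, adjusted p = 0.16, limma). The groups overlapped on both days, and the 95% interval of the change was -0.05 to 0.37 at 7 DPI and -0.01 to 0.40 at 3 DPI. Without contralateral 3 DPI replicate 3, its lowest array, the 3 DPI change was 0.11 (adjusted p = 0.45).

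Unc5b, a netrin receptor best known from blood vessels, likewise passed on neither day. Its brighter probe set (17758413) had values of 6.26, 6.20, 6.15 and 6.05 on the injured arrays and 6.48, 6.29, 6.33 and 6.20 on the contralateral arrays at 7 DPI (-0.16 ± 0.09, adjusted p = 0.22, limma). At 3 DPI they were 6.35, 5.85, 6.09 and 6.15 on the injured arrays and 6.29, 6.23, 6.34 and 6.26 on the contralateral arrays (-0.17 ± 0.09, adjusted p = 0.18, limma). The groups overlapped on both days. The other probe set went the other way at 3 DPI, with 5.79, 6.02, 5.53 and 5.48 on the injured arrays and 5.72, 5.54, 5.68 and 5.59 on the contralateral arrays (0.07 ± 0.11, adjusted p = 0.67, limma). Without injured 3 DPI replicate 1 the change of the brighter one was -0.25 and passed (adjusted p = 0.040), and without injured 3 DPI replicate 2 it was -0.08 (adjusted p = 0.52).

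Whether the injury effect differed between the days was tested as an interaction, and 0 of 10 members passed (lowest adjusted p = 0.26, limma), against 1.72% of all genes. At an unadjusted p under 0.05, 3 members stood out (Slit1, Ntn1, Robo1), against 13.6% of all genes. For Slit1 the effect was -0.19 at 7 DPI and 0.14 at 3 DPI, a difference of -0.34 ± 0.13, and for Robo1 it was 0.20 at 7 DPI and -0.16 at 3 DPI, a difference of 0.37 ± 0.14 (adjusted p = 0.26 for both, limma). The difference for Ntn1 was -0.67 ± 0.28 (adjusted p = 0.30, limma). Between injured nerves, 7 DPI against 3 DPI, 0 of 10 members passed, against 4.02% of all genes, and 3 had an unadjusted p under 0.05 (Slit1, Ntn4, Robo1), against 17.3% of all genes. Robo1 differed by 0.35 ± 0.10, which missed the threshold (adjusted p = 0.063, limma), and Slit1 by -0.25 ± 0.09 (adjusted p = 0.16, limma). Without the muscle-rich injured 7 DPI replicate 1, Robo1 differed by 0.26 (adjusted p = 0.18, limma) and Slit1 by -0.19 (adjusted p = 0.38, limma). Between contralateral nerves, 7 DPI against 3 DPI, 0 of 10 passed, against 0.0716% of all genes, and 1 had an unadjusted p under 0.05 (Ntn1), against 11.2% of all genes.

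The falls of the ligand mRNAs stood beside shifts in markers of several nerve cell types, whose part in these results was not tested. Of the 8 measured general Schwann cell markers, 4 fell and 2 rose at 7 DPI and 5 fell at 3 DPI. Their mean was 8.66 to 9.05 on injured and 9.30 to 9.46 on contralateral arrays at 7 DPI, and 8.72 to 8.87 on injured and 9.47 to 9.84 on contralateral arrays at 3 DPI. Sox10 itself, the transcription factor that defines Schwann cells, changed by 0.29 at 7 DPI (adjusted p = 0.065, limma) and -0.19 at 3 DPI (adjusted p = 0.23, limma). Of the 6 endoneurial mesenchymal markers, 5 fell and 1 rose at 7 DPI and 4 fell at 3 DPI, with means of 7.62 to 7.88 on injured and 7.995 to 8.05 on contralateral arrays at 7 DPI, and 7.67 to 7.90 on injured and 8.07 to 8.20 on contralateral arrays at 3 DPI. Of the 10 endothelial markers, 7 fell at 7 DPI, while 2 fell and 1 rose at 3 DPI. Their means were 7.72 to 8.26 on injured and 8.13 to 8.67 on contralateral arrays at 7 DPI, and 8.08 to 8.21 on injured and 8.20 to 8.43 on contralateral arrays at 3 DPI. The 10 adipocyte markers included 8 that fell at 7 DPI and 3 at 3 DPI, with means of 7.22 to 7.95 on injured and 8.31 to 9.24 on contralateral arrays at 7 DPI, and 7.10 to 7.56 on injured and 7.81 to 8.58 on contralateral arrays at 3 DPI. Of the 9 general mesenchymal markers, 2 rose and 1 fell at 7 DPI and 2 rose at 3 DPI. All 16 macrophage markers and all 10 cell division genes rose on both days. Cell division genes averaged 8.98 to 9.13 on injured and 6.86 to 7.31 on contralateral arrays at 7 DPI, and 8.98 to 9.52 on injured and 6.08 to 6.71 on contralateral arrays at 3 DPI. Macrophage markers averaged 8.96 to 9.59 on injured and 8.09 to 8.48 on contralateral arrays at 7 DPI, and 9.55 to 9.79 on injured and 7.68 to 8.38 on contralateral arrays at 3 DPI.

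The rest of the pathway was described from 6 lists of genes with known roles, beginning with the other ligands. Among all genes, 19.1% rose and 13% fell at 7 DPI, and 18.8% rose and 14.7% fell at 3 DPI, and no list was tested against these shares. Of 10 measured genes on the list of other netrins and ligands, 1 rose and 1 fell at 7 DPI and 1 rose and 3 fell at 3 DPI. The list includes Ntng1 and Ntng2, membrane-anchored netrin-G proteins that bind other partners than Robo, Dcc or neogenin. The median change was 0.01 at 7 DPI and 0.02 at 3 DPI. Nell1, a secreted glycoprotein related to the Robo3 ligand Nell2, had values of 6.51, 5.95, 5.98 and 6.40 on the injured arrays and 7.89, 7.69, 7.26 and 7.66 on the contralateral arrays at 7 DPI (-1.41 ± 0.14, 2.66-fold lower, adjusted p = 4.4e-07, limma). At 3 DPI Nell1 ranged from 6.46 to 6.55 on the injured arrays and from 7.55 to 7.85 on the contralateral arrays (-1.16 ± 0.14, 2.24-fold lower, adjusted p = 3.2e-06, limma). The gene that rose on both days was Rgma, a ligand of neogenin, by 0.68 at 7 DPI and 0.53 at 3 DPI. Ntng2 and Cbln4 made up the other falls at 3 DPI, by 0.36 and 0.37.

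Of the 7 other receptors, 1 fell at 7 DPI (Dscam, by 0.26) and 2 fell at 3 DPI, and none rose. Neo1 encodes neogenin, a receptor related to Dcc, and Robo3 is a divergent Robo known from commissural axons. At 7 DPI the changes were -0.22 ± 0.09 for Neo1 (adjusted p = 0.077, limma) and -0.26 ± 0.11 for Robo3 (adjusted p = 0.073, limma). Without the muscle-rich injured 7 DPI replicate 1 both passed at 7 DPI, at -0.30 for Neo1 (adjusted p = 0.018) and -0.31 for Robo3 (adjusted p = 0.049). Neo1 fell by 0.47 ± 0.09 at 3 DPI (adjusted p = 0.00059, limma), where its values were 7.9985, 8.24, 8.33 and 8.18 on the injured arrays and 8.53, 8.66, 8.84 and 8.59 on the contralateral arrays. Robo3 fell by 0.54 ± 0.11 at 3 DPI (adjusted p = 0.00074, limma), and its groups did not overlap.

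**Figure D4:**
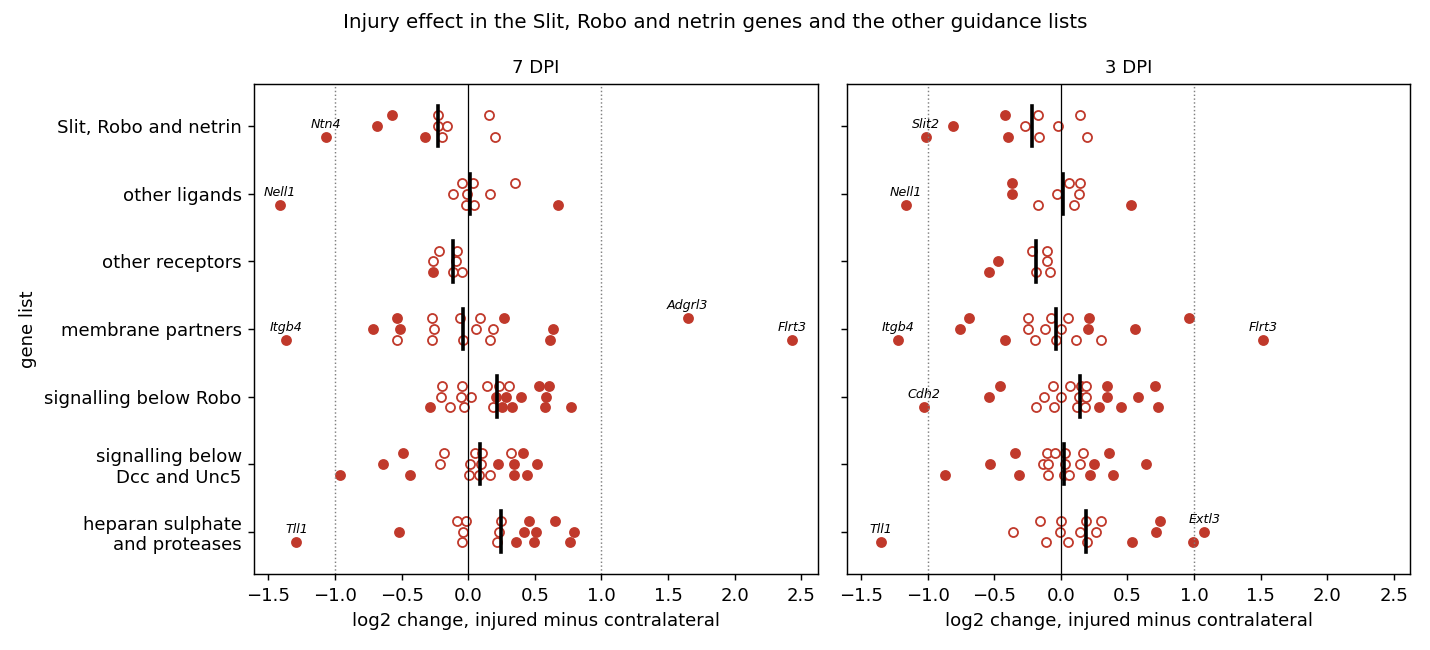
Log2 change, injured minus contralateral (x axis), of each measured gene of the members and the 6 other lists (y axis), at 7 DPI (left) and 3 DPI (right). Filled points passed an adjusted p under 0.05, thick bars are list medians, dotted lines mark 2-fold, and called genes are named. Flrt3 reaches 2.43 at 7 DPI and 1.52 at 3 DPI, while Nell1, Itgb4 and Tll1 lie below -1 on both days.

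Of the 19 measured membrane partners of the receptors, 5 rose and 4 fell on each day, against 19.1% and 13% of all genes at 7 DPI and 18.8% and 14.7% at 3 DPI. Flrt3, a leucine-rich repeat protein that binds Unc5 receptors and Robo1, had the largest change of the 6 lists. At 7 DPI Flrt3 had values of 11.51, 11.68, 11.80 and 11.82 on the injured arrays and 9.14, 9.23, 9.40 and 9.31 on the contralateral arrays (2.43 ± 0.08, 5.40-fold higher, adjusted p = 9.8e-13, limma). At 3 DPI they were 10.83, 10.97, 10.84 and 10.73 on the injured arrays and 9.27, 9.32, 9.39 and 9.30 on the contralateral arrays (1.52 ± 0.08, 2.87-fold higher, adjusted p = 2.7e-10, limma). Flrt3 passed the interaction test too, with an injury effect larger by 0.91 ± 0.11 at 7 DPI (adjusted p = 0.00051, limma). Adgrl3, the adhesion receptor latrophilin-3, which binds Flrt3 on the opposing cell, rose by 1.65 ± 0.16 at 7 DPI (3.14-fold, adjusted p = 3.7e-07, limma) and by 0.96 ± 0.16 at 3 DPI (1.95-fold, adjusted p = 0.00010, limma), and its groups overlapped on neither day. Itgb4, the integrin beta-4 subunit, reported as a netrin partner and also a marker of perineurial cells, fell by 1.37 ± 0.12 at 7 DPI (adjusted p = 2.0e-07, limma) and by 1.22 ± 0.12 at 3 DPI (adjusted p = 5.9e-07, limma). Of the 9 measured perineurial markers, a list that holds Itgb4, 4 fell and 2 rose at 7 DPI and 2 fell and 2 rose at 3 DPI, and their part in the result was not tested.

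**Figure D5:**
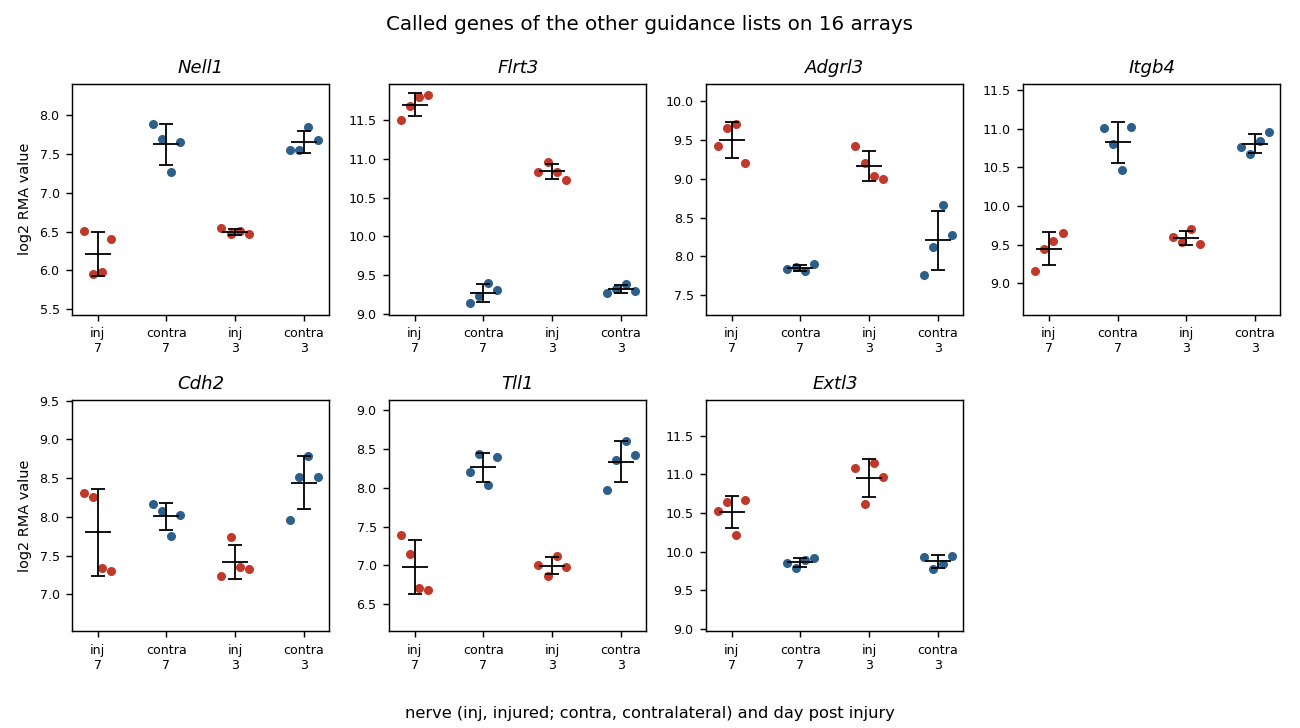
Log2 RMA values (y axis, same span in each panel) of the 7 called genes of the other lists on the 16 arrays, by nerve and day post injury (x axis), with injured arrays in red and contralateral arrays in blue and black bars for group means with SDs (n = 4). Flrt3, Adgrl3 and Extl3 are higher and Nell1, Itgb4 and Tll1 lower on every injured array of each day, while Cdh2 overlaps at 7 DPI.

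Of the genes that act inside the cell below Robo, 10 of the 22 measured rose and 1 fell at 7 DPI, against 19.1% and 13% of all genes, and 7 rose and 3 fell at 3 DPI, against 18.8% and 14.7%, with a median change of 0.22 at 7 DPI and 0.14 at 3 DPI. Those that rose on both days included Pak1, a kinase driven by Rac and Cdc42, by 0.77 at 7 DPI and 0.73 at 3 DPI, and the actin-binding profilin gene Pfn1, by 0.61 at 7 DPI and 0.71 at 3 DPI. Srgap2, a Robo-binding GTPase-activating protein, rose by 0.53 at 7 DPI and 0.45 at 3 DPI. Cdh2 encodes N-cadherin, whose adhesion is switched off by Slit and Robo in chick retinal cells. At 7 DPI Cdh2 split into 8.31, 8.26, 7.33 and 7.30 on the injured arrays, around contralateral values of 8.17, 8.07, 7.75 and 8.02 (-0.21 ± 0.22, adjusted p = 0.54, limma). It fell by 1.03 ± 0.22 at 3 DPI (2.04-fold, adjusted p = 0.0016, limma), and the call at 2-fold was lost without contralateral 3 DPI replicate 3 (-0.91) or injured 3 DPI replicate 1 (-0.97). Its values there were 7.24, 7.74, 7.35 and 7.33 on the injured arrays and 7.96, 8.51, 8.79 and 8.51 on the contralateral arrays.

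Of 20 measured genes that act below Dcc and Unc5, 6 rose and 4 fell at 7 DPI, against 19.1% and 13% of all genes, and 5 rose and 4 fell at 3 DPI, against 18.8% and 14.7%, and the median was 0.09 at 7 DPI and 0.03 at 3 DPI. Elmo1, which works with Dock proteins to activate Rac, fell by 0.96 ± 0.12 at 7 DPI (1.95-fold, adjusted p = 6.8e-06, limma) and by 0.87 ± 0.12 at 3 DPI (1.82-fold, adjusted p = 1.7e-05, limma). Its values at 7 DPI were 9.16, 8.89, 8.79 and 9.10 on the injured arrays and 9.90, 10.12, 9.76 and 10.001 on the contralateral arrays. Dock1, the Dock protein described below Dcc, rose by 0.41 at 7 DPI and 0.39 at 3 DPI. Tiam1, another activator of Rac, fell by 0.64 ± 0.09 at 7 DPI (adjusted p = 4.3e-05, limma) and by 0.31 ± 0.09 at 3 DPI (adjusted p = 0.015, limma). The 3 DPI change no longer passed without contralateral replicate 3 (-0.23, adjusted p = 0.057), injured replicate 2 (-0.27, adjusted p = 0.052) or injured replicate 4 (-0.28, adjusted p = 0.050).

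Heparan sulphate is needed for Slit to engage Robo, and proteases shed or cut Slit, Robo and Dcc. The 17 measured genes of these functions included 8 that rose and 2 that fell at 7 DPI, against 19.1% and 13% of all genes, and 5 that rose and 1 that fell at 3 DPI, against 18.8% and 14.7%, with a median of 0.25 at 7 DPI and 0.19 at 3 DPI. Extl3, a glycosyltransferase that starts heparan sulphate chains, rose by 0.65 ± 0.11 at 7 DPI (1.57-fold, adjusted p = 0.00021, limma) and by 1.08 ± 0.11 at 3 DPI (2.11-fold, adjusted p = 8.5e-07, limma). The sulphotransferase genes Hs6st1 and Hs2st1 rose on both days, Hs6st1 by 0.79 at 7 DPI and 1.00 at 3 DPI and Hs2st1 by 0.76 at 7 DPI and 0.71 at 3 DPI. Tll1, a protease of the tolloid family, of which the Drosophila member Tolkin cleaves Slit, had values of 7.39, 7.14, 6.70 and 6.68 on the injured arrays and 8.20, 8.44, 8.03 and 8.40 on the contralateral arrays at 7 DPI (-1.29 ± 0.16, 2.44-fold lower, adjusted p = 6.6e-06, limma). At 3 DPI Tll1 fell by 1.35 ± 0.16 (2.54-fold, adjusted p = 3.1e-06, limma).

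For the 3 members with the largest injury effects, the genes with the most similar profile were found as those whose 4 group means, each taken minus the mean of the contralateral groups, lay at the smallest root mean square distance from the member's. For Ntn4 these were Arxes1 (0.060), Nr4a2, an orphan nuclear receptor gene (0.060), and Pea15 (0.067), and the change of Nr4a2 was -1.09 ± 0.18 at 7 DPI and -0.92 ± 0.18 at 3 DPI. For Slit2 they were Dnal1 (0.010), Cmtm6 (0.019) and Folh1, which encodes glutamate carboxypeptidase II (0.029). For Ntn1 they were the extracellular matrix gene Svep1 (0.026), Bmp4, a bone morphogenetic protein gene (0.042), and the ephrin gene Efna5 (0.043). All 3 shared with Ntn1 a lowest contralateral 3 DPI value on replicate 3, 7.09 for Svep1, 7.40 for Bmp4 and 6.24 for Efna5, and a highest on replicate 1, 8.16 for Svep1, 8.32 for Bmp4 and 7.15 for Efna5. The 3 genes were picked for group means like those of Ntn1, and the share of all genes with this order of arrays was not counted. These likenesses rest on 4 group means from the same 16 arrays and are descriptions.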

How the data were processed

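For each of 16 rat sciatic nerves, labelled cDNA made from total RNA was read on 1 array of the type Affymetrix Rat Gene 2.0 ST. Per the authors' methods, RMA in the oligo package (version not given in the sources used here) corrected background, normalised by quantiles and gave 1 value per probe set, and the deposited log2 values were used unchanged. No detection calls, scan dates or scanner output were used, so signal was not set against background. Precision is limited by how many arrays there were. Of 36685 probe sets, 18511 had 1 gene symbol in the platform annotation, 575 several and 17599 none. Probe sets with 1 symbol entered the tests. They covered 18166 genes, of which 291 had several probe sets and kept the one with the highest mean. A genome build for the array annotation was not found in the labels or methods. The RefSeq table of GRCr8, which held 18059 of the gene identifiers, was used for names and promoter sequence only.

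The test was that of limma 3.58.1 (R 4.3.3), with lmFit and eBayes at their defaults, on a single model holding the 4 group means (12 residual degrees of freedom), and p-values were adjusted over all genes by the Benjamini-Hochberg method. The adjusted p limit of 0.05 and the 2-fold minimum are those the study's methods give for its neuron arrays. The script was tested on simulated data. Summaries used pandas 2.3.3 under Python 3.11.15, and matplotlib 3.10.9 drew the plots.

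The members and lists were chosen with earlier results of these data known. The rule named all members, up to 4 called genes of each of 6 pathway lists (or, with none called, up to 2 past the adjusted p) and the 3 genes nearest in profile to each of 3 members. Rgma, Ntng2, Cbln4, Dscam, Pak1, Pfn1, Srgap2, Dock1, Hs6st1, Hs2st1 and Sox10 lie outside it, and they were picked once their values had been seen. Lists also covered markers of Schwann, endoneurial, perineurial, mesenchymal, endothelial and mural cells, macrophages, T and B cells, adipocytes and skeletal muscle, myelin, injured Schwann cell and cell division genes. Of the 15 injured Schwann cell genes, 9 rose and 1 fell at 7 DPI and 10 rose and 3 fell at 3 DPI. Of 10 mural markers, 1 rose and 4 fell on each day, of 9 T and B cell markers 3 rose at 7 DPI while 2 rose and 1 fell at 3 DPI, and of 8 skeletal muscle markers none passed on either day by limma. The alternatives tried were to average probe sets, to drop the fold minimum, to test without the dimmest 30% of genes, median centring, cyclic loess, trend and robust settings, array weights, only the groups compared, pooled contralateral arrays, a replicate block across days or within each day, leaving out each array, and, chosen after seeing the data, the other probe set of Unc5b.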

Additional observations from a re-analysis of the deposited data

Results flagged for a closer look

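Robo1 had 1 contralateral 7 DPI array, replicate 4, far from the others. At 7.53 against 7.15 to 7.21 on the other 3, its gap to the nearest was 0.839 of the group's whole range, above Dixon's limit for 4 arrays. Of the 40 member groups, about 2 would be marked in this way by chance (1 in 20), and this was the 1 that was.

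For Slit1 and Robo1, the injured arrays of the 2 days lay on opposite sides of their contralateral means. The share of all genes that do so was not counted, so these 2 members are only described. The Slit1 injury effect was -0.19 at 7 DPI and 0.14 at 3 DPI, and the interaction was -0.34 ± 0.13. The Robo1 effect was 0.20 at 7 DPI and -0.16 at 3 DPI, and the interaction was 0.37 ± 0.14. Neither passed the test of the difference (adjusted p = 0.26 for both, limma). Without the muscle-rich injured 7 DPI replicate 1, the 7 DPI effect was -0.14 for Slit1 and 0.12 for Robo1. The interaction was then -0.28 for Slit1 and 0.28 for Robo1.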

How the results depend on the processing

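The number of members called was 1 on each day. Without the fold minimum it was 4 on each day, with the contralateral arrays pooled it was 0 at 3 DPI (Slit2 at -0.91), and leaving out each array in turn gave 0 to 1 on each day. The labels do not say whether nerves of the same number share an animal. Correlations of deviations between arrays of the same number and day ran from -0.08 to 0.22 over 8 pairs. Within a day, each array had 4 candidates on the other nerve, and 9 of 16 arrays lay closest to their own number. Random matching would give 1 in 4, a smaller share. This check cannot decide whether the numbers mark animals, and the main fit left the nerves unpaired. With a block for the replicate number across both days, 1 member was called on each day. All genes called then numbered 850 at 7 DPI (846 without) and 1055 at 3 DPI (1055 without). The only named gene that changed sides of the adjusted p threshold was Robo3 at 7 DPI (-0.26, adjusted p = 0.047, limma). With the block set within each day, all genes called numbered 849 at 7 DPI and 1055 at 3 DPI.

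Of 1311 alternatives of 72 single-gene results, 1237 kept direction and side of the threshold, 33 passed newly, 5 no longer passed and 36 changed sign, none of the last past the threshold and with no cause tested. At 3 DPI these were Unc5b by its other probe set (0.074) and Ntn1 with an array left out (-0.26 to 0.18). For the difference between days they were Unc5b by averaged probe sets (-0.12), the other probe set (-0.25), array weights (-0.00015) or an array left out (-0.074 to 0.093), and, with an array left out, Slit3 (-0.0027 to 0.16), Robo2 (-0.11 to 0.053) and Dcc (-0.078 to 0.10). Between injured nerves they were Slit3 by median centring (-0.0047), cyclic loess (-0.041), array weights (-0.016) or an array left out (-0.082 to 0.079), and Unc5b by averaged probe sets (-0.050), the other probe set (-0.16) or an array left out (-0.030 to 0.14). Between contralateral nerves they were Unc5c by median centring (-0.033), cyclic loess (-0.015) or an array left out (-0.054 to 0.054), and, with an array left out, Robo1 (-0.11 to 0.023) and Unc5b (-0.0073 to 0.086). The results newly past the threshold are listed here in part, and others with an array left out stand with their genes above. At 7 DPI they included Unc5c in 4 settings (adjusted p = 0.028 to 0.049, limma) and, with pooled contralateral arrays, Dcc (0.015) and Robo2 (0.045). At 3 DPI they included Dcc by median centring (0.027) and array weights (0.047) and Slit1 without contralateral replicate 1 (0.0499). Between injured nerves they included Ntn4 in 4 settings (0.028 to 0.038) and Robo1 in 2 (0.037 and 0.044). The values of Dcc and Slit1 are dim, and how far they stood above background was not measured.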
